A study of Macaca mulatta with 5 samples.

Results

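The comparison of embryoid bodies with the undifferentiated rhesus macaque embryonic stem cells they were made from rested on 2 of the 5 arrays of the series, 1 for each stage. ESC denotes line 366.4, a stem cell line from a rhesus preimplantation embryo, at passage 13 on a layer of mouse embryonic fibroblasts (MEF). EB denotes aggregates of the same line, 1 to 1.5 mm across, collected after 6 to 8 days. The later stages, N1 (neurospheres grown with N2 supplement), N2 (the same with FGF4 added) and N3 (maturation without FGF4), had 1 array each and are given only to show where a gene lay afterwards. The genotype and line were shared by every stage, the labels name no added inducer for EB, and how the aggregates were formed is not given in the sources used here. Of 14132 genes with a named probe set, 10978 were measured in this comparison, meaning that the signal reached a floor of 100 on at least 1 of the 2 arrays.

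Embryonic stem cells keep the ability to form every tissue of the embryo through a small circuit of transcription factors, with POU5F1, SOX2 and NANOG at its centre. When they are released from the feeder layer and allowed to clump, cells leave that state and the aggregate forms derivatives of the germ layers, usually with an outer layer of extraembryonic endoderm around a mixed core. Signals of the WNT, BMP, nodal, FGF and retinoic acid families pattern these derivatives, and the HOX genes record their position along the body axis.

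A gene was counted as different when its EB and ESC signals differed by at least 2-fold. By that rule 1332 genes were higher in EB, or 12.1% of those measured, and 1290 were lower, or 11.8%. Each list count below is to be read beside these shares, and a count near them shows nothing particular to the list. Steeper differences lay more often on the higher side, with 405 genes at least 4-fold higher against 255 lower, 126 against 42 at 10-fold, and 54 against 12 at 20-fold. The signal of the other stage was below the floor for 21.9% of the higher genes and 24.9% of the lower ones, and for these the fold is a lower bound, written as "at least". The median log2 ratio of EB over ESC was -0.06, and the 5th and 95th percentiles were -1.53 and 1.67. Close to the line, REEP3 (1431 in ESC and 2868 in EB) was counted, whereas NRP1 (241 and 482) was just short of it.

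With 1 array per stage there was no replicate spread and no test, so each difference is between these 2 arrays. A spread within these arrays came from genes with more than 1 probe set. Over 4461 such genes, the SD between the log2 ratios of the brightest and the second probe set was 0.753. It was computed as the SD of their difference divided by the square root of 2. This SD does not measure the spread between arrays or samples. Of 8 listed markers of undifferentiated cells, 5 have a probe set here. All 5 reached the floor in ESC and 4 did in EB (all but DPPA4), with summed signals of 70895 and 7578. The arrays differed in RNA quality. The 3' over 5' signal ratio of the actin control was 1.73 in ESC and 15.19 in EB, that of GAPDH 1.94 and 2.78, and that of EF1a 0.86 and 0.96. On the N1, N2 and N3 arrays the actin ratio was 5.43, 25.21 and 8.63, the GAPDH ratio 1.69, 7.10 and 2.10, and the EF1a ratio 0.83, 1.88 and 1.06. The part of these gaps in the differences between stages below was not tested. Genes higher in EB made up 50.8% of those past 2-fold, but 80.1% (2622 higher and 653 lower) when the arrays were scaled to equal medians, a scaling that moved the median log2 ratio of all genes to 0.41. With it the medians of 17 of the 47 gene lists, all between -0.47 and -0.03 before, turned above 0, so a list median in that range gives no direction here. In a mixed aggregate, fewer cells of a type and less RNA per cell cannot be told apart.

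**Figure D1:**
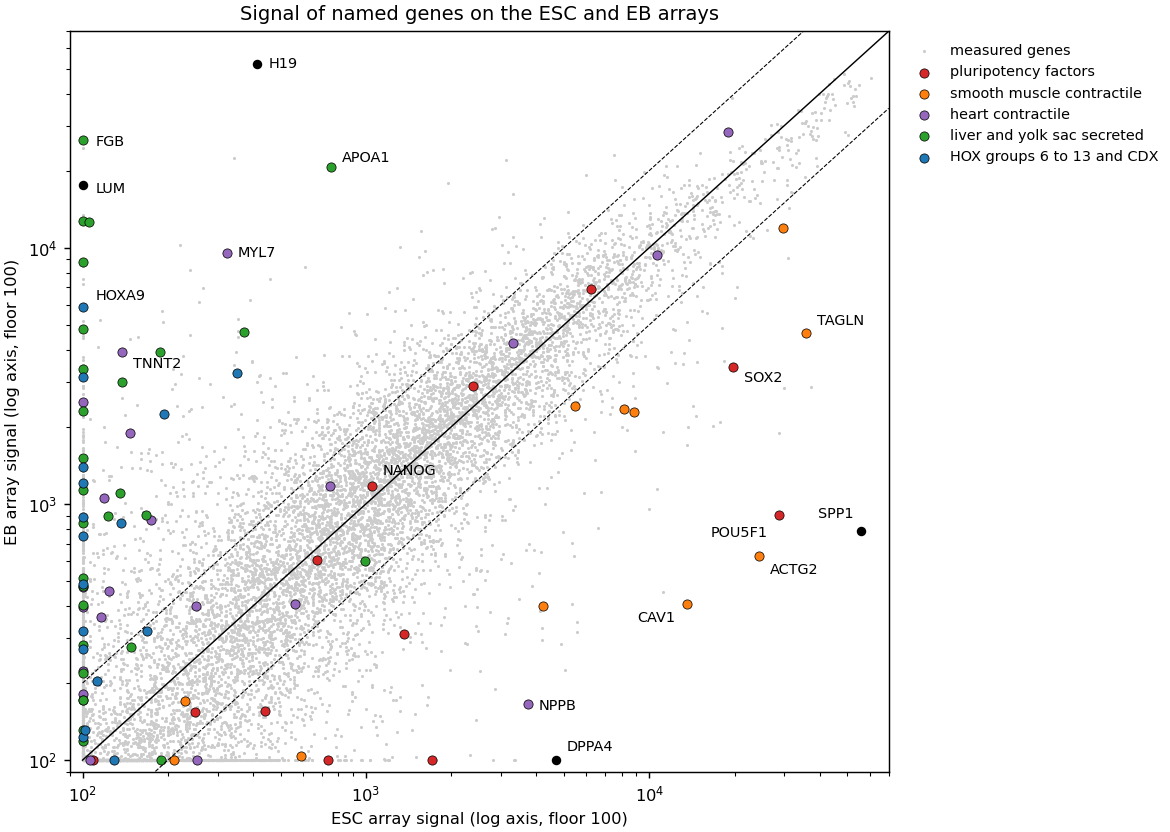
Signal of each measured gene on the ESC array (x axis) and the EB array (y axis), both log axes with values under 100 drawn at 100. The solid line marks equal signal and the dashed lines 2-fold. Pluripotency and smooth muscle genes lie on or below the solid line apart from NANOG, SALL4 and MYCN. FGB reached 26301 in EB from below the floor, and SPP1 was at 55894 in ESC and 786 in EB.

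The signal of genes that define undifferentiated cells was lower in EB for some of the circuit and short of 2-fold for the rest. POU5F1, a core pluripotency factor, was at 28621 in ESC and 906 in EB, 31.6-fold lower, and then at 249, 80.3 and 14.7 in N1, N2 and N3. SOX2, which acts with POU5F1 but is also a neural gene, was at 19736 and 3413, 5.78-fold lower, and its later signals were 5056, 13336 and 14978. ZSCAN10, a zinc finger factor of stem cells, had 1716 in ESC and was at least 17.2-fold lower. PRDM14, a repressor of differentiation genes, had 735 and was at least 7.35-fold lower. In contrast NANOG was at 1047 and 1178, SALL4 at 2395 and 2892, and MYCN at 6220 and 6875, all within 1.21-fold. FOXD3 (4.42-fold lower) and UTF1 (2.83-fold lower) completed the 6 of 12 measured pluripotency factors that passed 2-fold, with 0 higher and a list median of -1.10. KLF4, KLF5 and ZFP42 did not pass.

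Among 14 further measured genes of undifferentiated cells, 5 were lower and 0 higher, with a median of -0.53. DPPA4, a chromatin-bound protein of early embryonic cells, had 4678 in ESC, was at least 46.8-fold lower in EB and stayed below the floor at each later stage. The de novo DNA methyltransferase gene DNMT3B was at 16813 and 2007, 8.38-fold lower. JARID2, which recruits Polycomb repressive complex 2, was at 11220 and 1903, 5.90-fold lower on its brighter probe set and with a log2 ratio of -1.52 on the other. TERT, the catalytic subunit of telomerase, was at least 2.08-fold lower, and the signalling ligand gene NODAL 2.05-fold lower. The surface protein gene CD24 (15862 and 17311) differed by less than 2-fold. LIN28B, a blocker of let-7 maturation, was at 6987 and 9472 on its brightest probe set, but its log2 ratio was -2.04 when probe sets that may cross-hybridise were left out. So the members of these lists did not differ as a block: POU5F1, DPPA4 and ZSCAN10 were far apart between the arrays, while NANOG, SALL4 and CD24 were not.

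The direction of the DNA methylation and Polycomb list depended on the processing. Of 21 measured members 3 were lower and 2 higher (median -0.09), against 2 lower and 7 higher with equal medians (0.40) and 7 lower and 2 higher with each gene as the median of its probe sets (-0.45). DNMT3B and JARID2 were 2 of the 3 lower ones, with the Polycomb gene CBX7 at 2.10-fold. TET2, which oxidises methylcytosine, was at 269.8 in ESC and 1108 in EB, 4.11-fold higher, and the Polycomb subunit gene PHC2 was 2.27-fold higher.

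**Figure D2:**
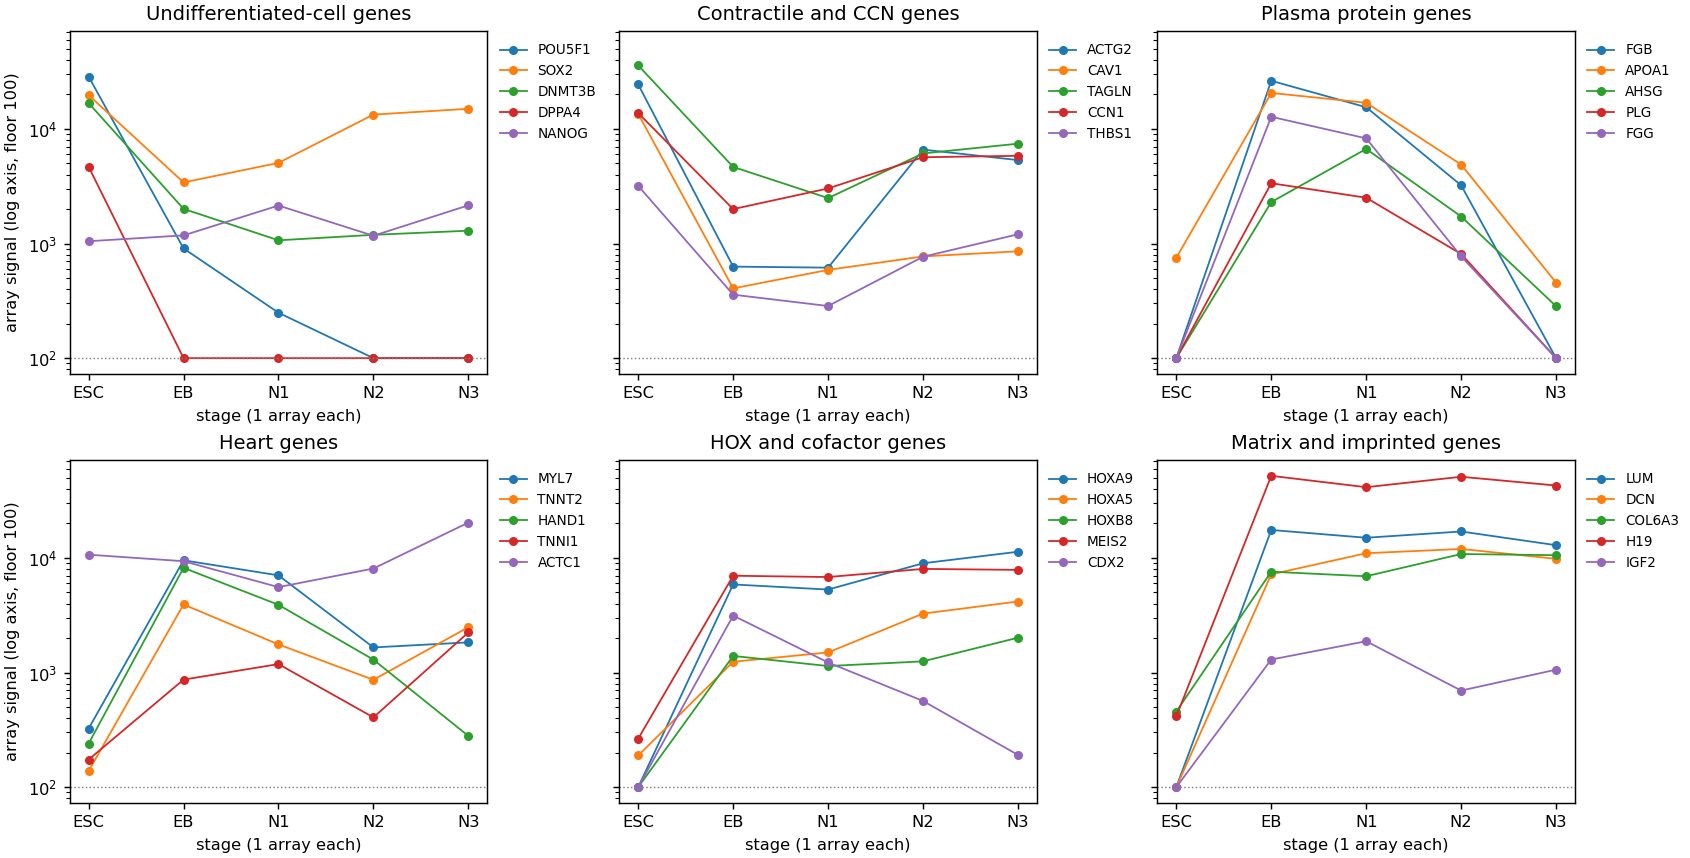
Signal of 30 named genes on the arrays of the 5 stages (x axis, 1 array each; y axis log signal with a floor of 100, dotted line). POU5F1 and DPPA4 were lower at each later stage than in ESC, FGB and APOA1 peaked in EB and were down to 71.2 and 456 in N3, and HOXA9, MEIS2, H19 and LUM stayed high from EB to N3.

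The lowest list median was in genes of the contractile and adhesive cytoskeleton. Of 11 measured smooth muscle genes, 10 lay at least 2-fold lower in EB and 0 higher, with a median log2 ratio of -1.95. ACTG2, a smooth muscle actin, was at 24431 in ESC and 629 in EB, 38.9-fold lower, with N1 to N3 at 616, 6600 and 5346. Its second probe set gave -6.18 on the log2 scale. CAV1, the coat protein of caveolae, was at 13547 and 406, 33.3-fold lower, and its 3 probe sets lay at -5.03 or below. TAGLN, an actin-bundling protein, was at 35825 and 4660, 7.69-fold lower. The actin-binding protein genes CNN1 (10.5-fold), FLNA (3.47-fold) and CALD1 (2.47-fold) and the myosin genes MYH11 (5.70-fold) and MYL9 (3.86-fold) were lower as well. With arrays scaled to equal medians 7 of the 11 passed.

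In the matrix remodelling list 13 of 23 measured members were lower and 5 higher (median -1.18). SPP1, the secreted phosphoprotein osteopontin, had the steepest lower ratio that was not a bound, 71.1-fold, from 55894 in ESC to 786 in EB. The matricellular gene CCN1 was at 13750 and 1997, 6.88-fold lower, and the thrombospondin genes THBS1 and THBS2 were 8.89-fold and 7.63-fold lower. CCN2, related to CCN1, was 15.2-fold lower on its brightest probe set (28675 and 1889), but its next probe set gave a log2 ratio of 0.94. The metalloprotease inhibitor gene TIMP2 was 4.49-fold lower, whereas TGFBI, an adhesion protein induced by TGF-beta, was at 220.3 and 10239, 46.5-fold higher, and ADAMTS1, a protease that cuts proteoglycans, was 10.2-fold higher.

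Markers of fibroblasts moved in both directions between the same arrays. Of the 8 listed for the feeder layer, 7 have a probe set here. THY1, a fibroblast surface glycoprotein, was at 5443 in ESC and 628 in EB (8.67-fold lower), COL3A1 at 533 and 100.4 (5.30-fold lower), S100A4 at 992 and 267 (3.72-fold lower), and COL1A2 at 3312 and 944 (3.51-fold lower). COL1A1 was at 4635 and 3604. The proteoglycan genes LUM and DCN were below the floor in ESC and at 17532 and 7189 in EB. In all, 5 of the 7 reached the floor in ESC and 7 of 7 in EB, with summed signals of 14974 and 30264. The part of mouse feeder RNA in the ESC signal of the contractile, matricellular and fibroblast genes was not tested.

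Targets of p53 and genes of apoptosis were also mostly on the lower side, with 9 of 17 lower, 1 higher and a median of -1.02. PMAIP1, which encodes the killer protein NOXA, was at 9967 in ESC and 958 in EB, 10.4-fold lower, and its second probe set gave -4.49. BAX, which permeabilises the mitochondrial outer membrane, was at 3010 and 862, 3.49-fold lower, with 3 probe sets from -3.03 to -1.73. PHLDA3, an inhibitor of AKT, was 5.25-fold lower, the stress cytokine gene GDF15 4.93-fold, the RNA-binding protein gene ZMAT3 3.41-fold, the apoptosis inducer gene BIK 2.80-fold, CASP8 at least 2.44-fold and BBC3, which encodes PUMA, 2.35-fold. The p53 target CDKN1A was at 1196 and 695, short of 2-fold. MCL1, a survival protein named after its value was seen, was 2.11-fold higher, but its other probe set gave -2.64. Scaled to equal medians, 6 of these 17 genes were lower.

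Of 16 measured cell cycle inhibitors, D cyclins and related genes 5 were lower and 2 higher (median -0.42). CDKN2A, which encodes the arrest proteins p16 and ARF, was at 1454 and 511, 2.85-fold lower, and cyclin D1 (CCND1) was 2.88-fold lower. CDKN1B, the inhibitor p27, was at 647 and 1803, 2.79-fold higher, and CCND3 was 2.48-fold higher. Of 17 mitotic genes 0 were higher and 2 lower (CENPA 2.95-fold and TPX2 2.36-fold), with a median of -0.05. Of 18 replication genes 0 were higher and 1 lower (CDC6, 3.36-fold), with a median of -0.14, or 3 higher and 1 lower with equal medians. The lower shares of 11.8% and 5.56% were not above the 11.8% of all measured genes. TOP2A was at 7449 and 9220, CCNB1 at 9754 and 9234 and PCNA at 14105 and 11990.

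Among the genes that pattern the primitive streak, the embryo's entry to mesoderm and endoderm, members were split. Of 11 measured genes 4 were higher and 3 lower, with a median of -0.47 and a mean of 0.02, which differ in sign. TBXT, the streak factor brachyury, was below the floor in ESC and at 235 in EB, at least 2.35-fold higher, and was again below it at each later stage. SP5, a WNT-induced factor, was at 212 and 1429, 6.74-fold higher, WNT3 was 3.19-fold higher and CDX1 at least 3.18-fold higher. EOMES, a T-box factor of the streak and definitive endoderm, was at 404 and 115, 3.52-fold lower, and the nodal antagonist gene CER1 was at least 3.98-fold lower.

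Heart and lateral mesoderm factors were among the lists furthest to the higher side: 11 of 15 measured genes were higher and 0 lower, with a median of 2.12. HAND1, a helix-loop-helix factor of heart, lateral mesoderm and extraembryonic tissue, was at 239.7 in ESC and 8193 in EB, 34.2-fold higher, and then at 3897, 1295 and 279.6. GATA6, a zinc finger factor of heart and primitive endoderm, was at 257 and 6158, 23.9-fold higher. ISL1, a marker of heart progenitors and of motor neurons, was at least 18.6-fold higher and, unlike HAND1, was higher still at N1 (3550) and N2 (4794). TBX3 was at least 18.4-fold higher, the Notch and BMP target HEY1 9.78-fold, FOXC1 at least 7.79-fold, MEF2C 4.37-fold and HAND2 at least 4.35-fold. GATA4, which works with these factors, was at 182 and 276.

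Genes of heart sarcomere proteins differed the same way, though not throughout. Of 21 measured contractile and secretory heart genes 11 were higher and 2 lower, with a median of 1.16. The lower ones were NPPB and the myosin light chain gene MYL2 (log2 ratio -1.34, named after its value was seen). MYL7, the atrial myosin light chain, was at 324 in ESC and 9531 in EB, 29.4-fold higher, and at 7044, 1656 and 1833 later. TNNT2, cardiac troponin T, was at 138 and 3926, 28.5-fold higher, with both measured probe sets between 4.83 and 4.91. MYL4, another atrial light chain, was 12.9-fold higher, TNNC1 8.92-fold, the fetal troponin gene TNNI1 4.97-fold and SMPX at least 4.73-fold. The cardiac myosin heavy chain gene MYH6 was at least 25.0-fold higher on its brightest probe set, while the lowest of its 3 gave -0.20. Cardiac actin, ACTC1, was bright on both arrays (10670 and 9360), and the adult gene TNNI3 was at 564 and 407. The 2 natriuretic peptide genes went opposite ways: NPPA was at 124 and 457, 3.70-fold higher, and NPPB was at 3726 and 165, 22.5-fold lower and below the floor at each later stage.

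A set of vasoactive peptide genes was also divided, with 5 of 11 measured members higher and 3 lower (median 0.49). These counts include NPPA and NPPB again. AGTR1, the main angiotensin II receptor, was at 115 in ESC and 5224 in EB, 45.6-fold higher, and its second probe set gave 3.14. The angiotensin precursor gene AGT was at least 11.4-fold higher, the second receptor gene AGTR2 at least 3.60-fold and RAMP2, a partner of the adrenomedullin receptor, 2.68-fold. EDN1, the endothelin-1 precursor, was at 1840 and 338, 5.44-fold lower, and adrenomedullin (ADM) was 4.62-fold lower. AGT also belongs to the liver and yolk sac list below, and ADM to the hypoxia list.

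In the endothelial list 8 of 9 measured genes were higher, 0 were lower and the median was 2.32, but 10 further members, among them KDR, FLT1 and VWF, were below the floor on both arrays. ANGPT1, the ligand of the vessel receptor TEK, was below the floor in ESC and at 5154 in EB, at least 51.5-fold higher, with 3 probe sets from 4.31 to 5.69. PECAM1, an adhesion protein of endothelium, was at 126 and 1291, 10.3-fold higher. The endothelial cadherin gene CDH5 was at least 9.19-fold higher, and its other probe set gave 0.13. The transcription factor gene FLI1 was at least 8.63-fold higher with a lowest probe set at -0.35, TIE1 4.99-fold, ERG at least 3.62-fold and EGFL7 2.41-fold. TEK was 2.84-fold higher on the brighter probe set (3070 and 8706) and had -1.53 on the other. PECAM1, CDH5 and TIE1 were all lower in N2 than in EB, and below the floor in N3. The ligand gene ANGPT1 had another course, at 5164 in N1, 3648 in N2 and 1004 in N3.

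Blood genes were few and dim. Of 13 measured, 5 were higher and 1 lower (median -0.05, mean 0.66). LMO2, a cofactor of blood and vessel formation, was at 149 and 1376, 9.23-fold higher, ALAS2, the erythroid haem synthesis enzyme, 7.58-fold and the monocyte receptor gene CD14 at least 5.26-fold. Embryonic and fetal globins were at 224 (HBE1, at least 2.24-fold higher) and 586 (HBG2, at least 5.86-fold higher) in EB and were brighter in N1, at 2077 and 5079. The adult globin gene HBB was at least 3.83-fold lower, from 383. Globin probe sets can share targets, so which globin was bound is uncertain. PTPRC, the pan-leukocyte marker CD45, was below the floor in both.

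The list furthest to the higher side held plasma proteins made by the liver and the visceral yolk sac. Of 29 measured genes 22 were at least 2-fold higher and 0 lower. The median was 3.03, or 2.01 when probe sets that may cross-hybridise (marked _s_ or _x_) were left out. All 3 fibrinogen chain genes were below the floor in ESC: FGB was at 26301 in EB, at least 263-fold higher, FGG at 12758, at least 128-fold, and FGA at 4800, at least 48.0-fold. APOA1, the main protein of high density lipoprotein, was at 751 and 20596, 27.4-fold higher. PLG, the plasmin precursor, was at least 33.6-fold higher with 3 probe sets from 4.81 to 5.07, and the fetal plasma protein gene AHSG at least 23.0-fold.

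Their courses after EB differed. FGB, FGG and PLG were highest in EB and below the floor in N3, while AHSG (2299 in EB and 6691 in N1), APOC3 (2998 and 9328) and SERPINA1 (3923 and 13569) were brighter in N1. APOC3, an inhibitor of lipoprotein lipase, was 21.8-fold higher in EB than in ESC, but its log2 ratio was 0.35 without cross-hybridising probe sets. SERPINA1, the elastase inhibitor alpha-1-antitrypsin, was 21.0-fold higher on its brightest probe set, but its 6 probe sets ran from -2.92 to 4.39. SPINK1, a trypsin inhibitor, was at 105 and 12591, 120.0-fold higher, and MTTP, which loads lipid onto lipoproteins, at least 87.9-fold. AFP, the classic fetal plasma protein, was among the 7 measured members short of 2-fold. It was at 991 in ESC and 601 in EB, and both of its probe sets were below 0. The others were ITIH4 (log2 ratio -0.92), ITIH3 (0.25), APOB (0.39), ITIH1 (0.78), AMBP (0.79) and TFF3 (0.90). A further 6 members were below the floor on both arrays.

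Endoderm transcription factors were higher for 7 of 15 measured genes and lower for 2 (median 0.70). The 7 include GATA6, also in the heart list, and CDX2, also in the trophoblast list. FOXA1, a pioneer factor of endoderm, was below the floor in ESC and at 4456 in EB, at least 44.6-fold higher, and at 2709, 1341 and 523 afterwards. FOXA2 was at least 6.17-fold higher, SOX17 was at 227 and 690.2, 3.04-fold higher, and PRDM1, a repressor with roles in endoderm and germ cells, 12.7-fold higher. HHEX was bright on both arrays (14568 and 10903) with 4 probe sets from -2.01 to 1.48. NR5A2, a nuclear receptor active in both pluripotent cells and liver, was at 699 and 245, 2.85-fold lower. CEBPA, a liver and myeloid factor, was at least 57.4-fold higher with probe sets from 1.16 to 5.84.

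Genes of trophoblast and amnion, extraembryonic tissues that primate stem cells can form, had 9 of 16 measured members higher and 4 lower (median 1.42). CDX2, which specifies trophoblast and later the posterior body, was below the floor in ESC and at 3138 in EB, at least 31.4-fold higher, with N1 to N3 at 1224, 565 and 191. GATA3 was at 348 and 3911, 11.3-fold higher, with probe sets at 3.23 and 3.49. The placental growth factor gene PGF was 7.17-fold higher. TFAP2A was at least 13.5-fold higher on its brightest probe set and had -0.37 on the lowest of its 3. Against these, VTCN1, an immune checkpoint protein found in trophoblast and amnion, had 2808 in ESC and was at least 28.1-fold lower, and TFAP2C was at 2159 and 607, 3.56-fold lower. HAND1 and ISL1 belong to this list and to the heart list, and GCM1, a syncytiotrophoblast factor, was below the floor in both.

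Epithelial genes were divided, at 4 of 19 higher, 3 lower, a median of -0.12 and a mean of 0.05, or 7 higher and 3 lower with equal medians. KRT19, a keratin of simple epithelia, was at 1954 in ESC and 17852 in EB, 9.14-fold higher, with all 3 probe sets at 2.06 or more. KRT18 was 6.42-fold higher, the placental cadherin gene CDH3 4.29-fold and the desmosome gene DSP 2.07-fold. CLDN6, a claudin of embryonic epithelium, was at 17809 and 2089, 8.53-fold lower, the membrane protease gene ST14 4.33-fold and the tight junction gene OCLN at least 3.44-fold lower. Genes of the transition to mesenchyme were likewise divided, with 3 of 14 higher and 3 lower (median -0.03, mean 0.16). PRRX1, a homeobox factor of limb and lateral mesenchyme, was below the floor in ESC and at 3267 in EB, at least 32.7-fold higher. CDH11, a mesenchymal cadherin, was at 1647 and 8036, 4.88-fold higher, ZEB2 3.26-fold higher, and ZEB1 2.74-fold lower.

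Among 19 measured fibrillar collagens, small proteoglycans and related genes 9 were higher and 5 lower, with a median of 0.80 that was -0.13 when each gene was taken as the median of its probe sets. LUM was at least 175-fold higher with 3 probe sets from 3.95 to 7.45, and DCN at least 71.9-fold with 5 from 0.59 to 6.26. Both encode small proteoglycans that space collagen fibrils. COL6A3, a chain of beaded-filament collagen, was at 457 and 7583, 16.6-fold higher, and its partner COL6A2 3.83-fold. FBN1, the microfibril protein fibrillin-1, was 6.37-fold higher, although its lowest probe set gave -1.64. COL12A1, a fibril-associated collagen, was at 1324 and 156, 8.46-fold lower. COL2A1, the collagen of cartilage and notochord, was at 157 and 4487, 28.6-fold higher.

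Also in the matrix, HAPLN1, the link protein that ties proteoglycans to hyaluronan, was below the floor in ESC and at 12494 in EB, at least 125-fold higher, and its 3 probe sets lay between 6.09 and 6.97. VCAN, the proteoglycan versican, was at 3114 and 22102, 7.10-fold higher, with 5 probe sets all at 1.54 or more. In the basement membrane 4 of 14 genes were higher and 1 lower (median -0.18, mean 0.36). FREM2 was at 354 and 4482, 12.7-fold higher, and the laminin genes LAMB1 and LAMA1 were 5.60-fold and 3.18-fold higher, while the heparan sulphate proteoglycan gene AGRN was 2.42-fold lower. SMOC1 was at least 2.20-fold higher. ITGA6, a laminin receptor chain, was at 5899 and 1100, 5.36-fold lower, and ITGB1, the common integrin beta chain, at 5565 and 347, 16.1-fold lower on its single named probe set.

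**Figure D3:**
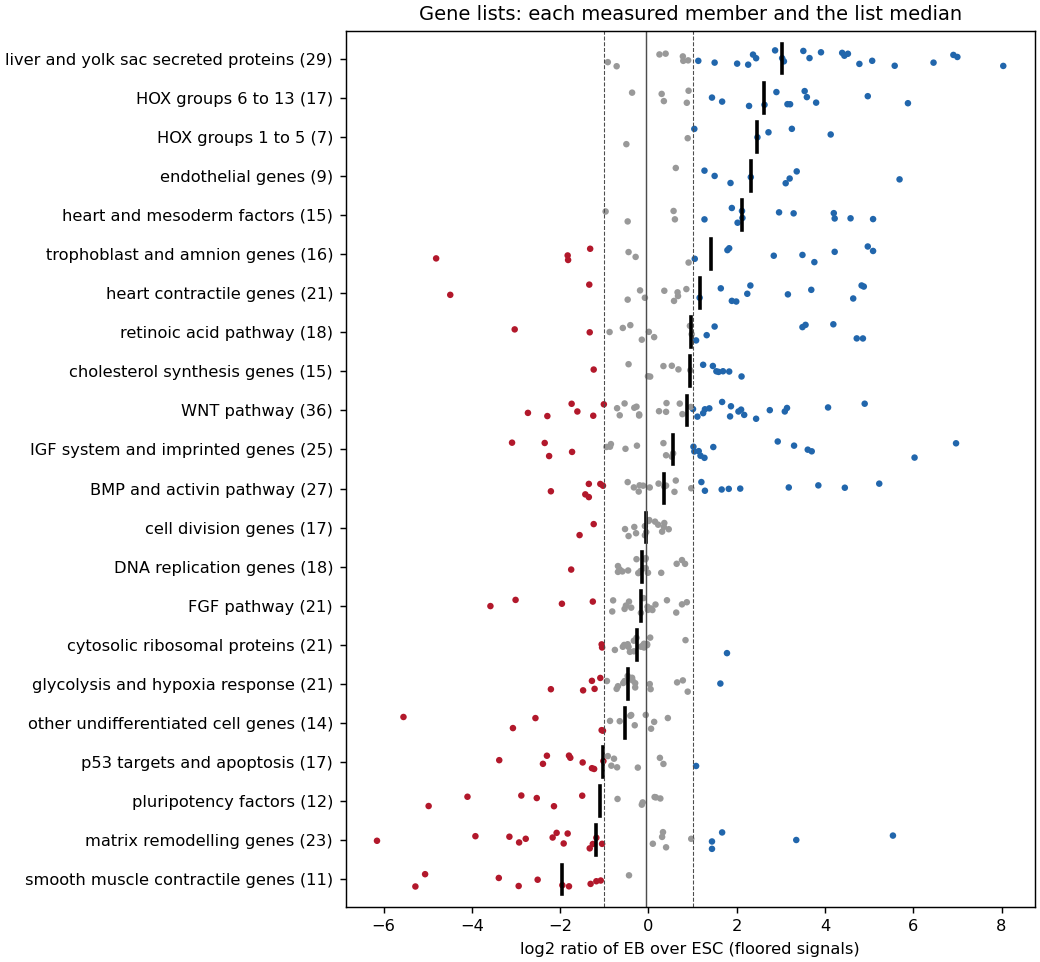
Log2 ratio of EB over ESC (x axis) for each measured member of 22 gene lists, with the number measured in brackets. Points past 2-fold are blue (higher) or red (lower), black bars are list medians, the thin line is the median of all measured genes (-0.06) and dashed lines mark 2-fold. Liver and yolk sac proteins had the highest median (3.03) and smooth muscle genes the lowest (-1.95).

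Signalling genes were next. In the WNT pathway, which drives streak formation and posterior growth, 17 of 36 measured genes were higher and 6 lower (median 0.87). Of the ligands, WNT5A was at 1263 and 5664, 4.49-fold higher with 3 probe sets at 2.15 or more, and WNT2 at least 5.43-fold higher. Among receptors, FZD10 was at 147 and 4389, 29.8-fold higher, while FZD5 was at 2683 and 547, 4.91-fold lower on both probe sets. The potentiators RSPO3 (119 and 1996, 16.8-fold) and RSPO2 (at least 8.83-fold) were higher. The feedback inhibitor DKK1 was 8.50-fold higher, while SFRP1, which binds WNT proteins outside the cell, was at 14643 and 2213, 6.62-fold lower, with all 3 probe sets at -1.94 or below. The receptor genes FZD10 and FZD5 thus differed in opposite directions, as did the inhibitors DKK1 and SFRP1.

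In the BMP and activin pathway 9 of 27 measured genes were higher and 6 lower (median 0.36), or 12 higher and 1 lower with equal medians (0.72). BMP2, a ligand that induces mesoderm and extraembryonic fates, was below the floor in ESC and at 3740 in EB, at least 37.4-fold higher, with probe sets at 4.56 and 5.23. The homeobox gene MSX1 was at 222 and 3212, 14.5-fold higher. MSX2 was at least 21.8-fold higher, or 1.37 on the log2 scale on the probe set brightest in ESC and EB alone. Of the ID genes, which BMP induces in many cells, ID1 was 2.55-fold lower (log2 ratio -1.35, or -0.86 with equal medians), while ID3 (-0.20) and ID4 (0.03) were short of 2-fold. The inhibitors SMAD6 (9.07-fold) and BAMBI (2797 and 11862, 4.24-fold) were higher too, as was the co-receptor gene TGFBR3 (3.54-fold, with 3 probe sets at 1.82 or more). BMP7 was 3.16-fold higher with a lowest probe set below 0. GREM1, a secreted BMP antagonist, was at least 4.63-fold lower, from 463, but had a log2 ratio of -0.44 with a floor of 50.

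The FGF pathway, which supports self-renewal of primate stem cells, had 0 of 21 measured genes higher and 4 lower (median -0.17). FGF2 itself was at 1196 in ESC and below the floor in EB and later, at least 12.0-fold lower. ETV4, a transcription factor induced by FGF signalling, was at 2275 and 283, 8.04-fold lower, and its other probe set gave -3.01. The receptor gene FGFR1 was at 1011 and 260.3, 3.88-fold lower, and FGF12 2.39-fold lower, while FGFR2 was at 2762 and 4665. Scaled to equal medians, 3 members were higher and 3 lower.

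Retinoic acid, a vitamin A derivative that posteriorises the embryo, is made by ALDH1A2 and broken down by CYP26A1. These enzymes differed in opposite directions: ALDH1A2 was below the floor in ESC and at 1180 in EB, at least 11.8-fold higher, and CYP26A1 was at 6571 and 806, 8.15-fold lower, with a log2 ratio of -1.69 on the other probe set. The homeobox cofactors MEIS1 (at least 29.0-fold) and MEIS2 (265 and 6991, 26.4-fold) and the nuclear receptors NR2F2 (at least 18.3-fold) and NR2F1 (215 and 2412, 11.2-fold) were higher, and MEIS2 stayed between 6810 and 8019 afterwards. RBP4, the plasma retinol carrier, was at least 2.82-fold higher and TGM2 at least 2.51-fold lower. In all 8 of 18 members were higher and 2 lower (median 0.96).

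Hedgehog genes were higher for 5 of 13 members and lower for 0 (median 0.47). They were the co-receptor gene BOC (7.27-fold, second probe set -0.96), the mesenchymal targets FOXF2 (at least 6.21-fold) and FOXF1 (at least 4.07-fold), the inhibitor HHIP (152 and 823, 5.42-fold) and the ligand gene IHH (3.29-fold). FOXF1 is also in the heart list. The receptor gene PTCH1 (log2 ratio 0.47) and the factor genes GLI1 (0.72) and GLI2 (-0.62) were short of 2-fold. With the median of probe sets 3 of 13 Hedgehog genes were higher and 0 lower. In the Notch list 5 of 18 were higher and 2 lower, with a median of 0.58, or -0.13 with the median of probe sets. DLK1, a non-canonical ligand, was at 341 and 22327, 65.5-fold higher, HEY2 at least 3.70-fold and DLL1 3.54-fold, although the other probe set of DLL1 gave -0.78. HEYL was 2.79-fold higher with -2.27 on its other probe set, DLL3 2.32-fold lower and HES4 at least 2.30-fold lower.

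HOX genes, the homeobox genes that lie in 4 clusters and mark position along the trunk, were dim in ESC, at 351 or less. Of 26 with a probe set here 21 were measured, 15 were past 2-fold on the higher side and 0 on the lower, and the median was 2.63. HOXA9 was below the floor in ESC and at 5869 in EB, at least 58.7-fold higher, and later at 5296, 8980 and 11316. HOXA3, of the hindbrain groups, was at least 17.5-fold higher, HOXA10 at least 12.0-fold, HOXB6 11.6-fold (194 and 2254), HOXB5 at least 9.53-fold, HOXB7 at least 8.87-fold, HOXA7 at least 7.48-fold and HOXA5 6.59-fold (189 and 1242). HOXC6 was at 351 and 3249, 9.24-fold higher, with a lowest probe set at -0.46. By cluster, 6 of 7 measured HOXA genes were higher, 4 of 5 HOXB, 1 of 3 HOXC and 4 of 6 HOXD. HOXB8 was below the floor in ESC and at 1396 in EB. The genes past 2-fold ran from group 1 (HOXD1, 2.05-fold) to group 13 (HOXA13, at least 2.71-fold, named after its value was seen). Both ends were dim, with HOXD1 at 295 and HOXA13 at 271 in EB. HOXC13 (log2 ratio 0.35) and HOXD13 (-0.37) were short of 2-fold, and HOXB1 and HOXB13 were below the floor on both arrays. With HOXA9 and HOXA10 among them, the genes past 2-fold were not limited to anterior groups.

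**Figure D4:**
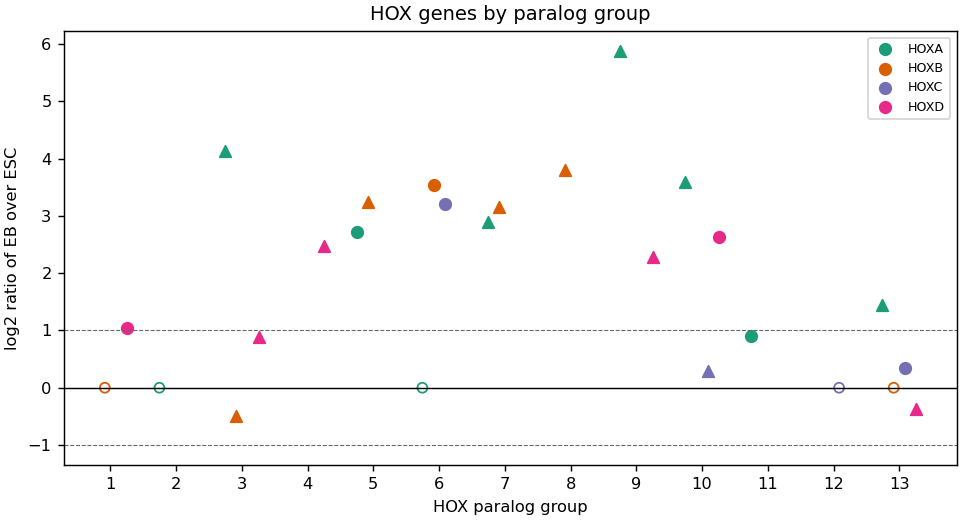
Log2 ratio of EB over ESC (y axis) for HOX genes by paralog group (x axis) and cluster (colour). Triangles are bounds with 1 array below the floor, open circles at 0 are genes below the floor on both, and dashed lines mark 2-fold. Groups 5 to 9 hold no measured gene under 2-fold, and HOXA9 is highest at 5.88.

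Neural genes were not uniformly higher, although the culture was headed for neurons. Of 15 measured early neural genes 6 were higher and 4 lower (median -0.42, mean 0.30). NR2F1 and NR2F2, given above, led the higher ones, and IRX3, a homeobox factor of the neural tube and mesoderm, was at 1260 and 4737, 3.76-fold higher. ZBTB16 was at least 9.01-fold higher. The neural progenitor gene SOX3 was at 4135 and 651, 6.35-fold lower, and ZIC2 at 13866 and 4352, 3.19-fold lower. PAX6, a marker of neuroectoderm, was at 753 in ESC and 419 in EB, and was brighter only in N2 (3301) and N3 (3322). SOX3, ZIC2 and SOX2 thus had their lowest or next to lowest signals in EB and N1 and were higher again in N2.

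Neuronal genes were divided, with 5 of 13 higher and 4 lower (median 0.20, mean -0.16). SYT1, a calcium sensor of synaptic vesicles, was at 4177 in ESC and 329 in EB, 12.7-fold lower, with 4 probe sets from -4.25 to -2.46. The adhesion gene L1CAM was 7.83-fold lower, TUBB3, a neuronal tubulin, 5.56-fold lower on the brightest of 4 probe sets (the highest gave 0.16), and CRMP1 2.73-fold lower. DCX, a microtubule protein of migrating neurons, was at 186 and 535, 2.88-fold higher, and reached 10607 in N3. ELAVL4 was at least 2.42-fold and DPYSL3 2.31-fold higher. ISL1, given with the heart factors, was also among the 5 higher neuronal genes. In the neural crest list 5 of 11 were higher and 1, FOXD3, lower (median 0.20). The 5 include TFAP2A, also in the trophoblast list, and MSX1 and MSX2, also in the BMP list. PAX3, of the dorsal neural tube and crest, was at least 10.7-fold higher with a lowest probe set at 0.25, and SOX10 was at 202 in EB, at least 2.02-fold higher.

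Imprinted genes and the insulin-like growth factor system held the highest ratio that was not a bound. H19, a maternally expressed noncoding RNA, was at 414 in ESC and 52029 in EB, 126-fold higher, and its 3 probe sets lay between 4.11 and 6.97. Its neighbour IGF2, the paternally expressed fetal growth factor, was below the floor in ESC and at 1299 in EB, at least 13.0-fold higher. PEG3 (12.2-fold) and PLAGL1 (9.86-fold), which encode zinc finger proteins expressed from the paternal copy, were also higher. Binding proteins of the growth factors were divided: IGFBP3 was at 1321 and 10053, 7.61-fold higher, IGFBP2 at 18356 and 3608, 5.09-fold lower, and IGFBP6 at least 8.54-fold lower. Of 25 measured members 12 were higher and 4 lower (median 0.56).

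Cholesterol synthesis genes were higher for 7 of 15 members and lower for 1 (median 0.95, or 0.53 when cross-hybridising probe sets were left out). CYP51A1, which demethylates lanosterol, was at 529 and 2277, 4.31-fold higher (0.62 on the log2 scale on the probe set brightest in ESC and EB alone), EBP 3.56-fold, TM7SF2 3.22-fold, IDI1 3.02-fold, NSDHL 2.91-fold and INSIG1, a sterol sensor, 2.75-fold. HSD17B7 was 2.36-fold higher, and its lowest probe set gave -0.39. DHCR7, which catalyses the last step, was at 1208 and 512, 2.36-fold lower. The lowest probe sets of TM7SF2 and IDI1 gave -0.01 and 0.04.

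Glycolysis and hypoxia genes had 5 of 21 members lower and 1 higher (median -0.47, or 0.01 with equal medians). The glucose transporter gene SLC2A1 was at 4235 and 13102, 3.09-fold higher. CA9, a carbonic anhydrase induced by low oxygen, was 2.80-fold lower, PDK1 2.43-fold, HK2 2.33-fold and GAPDH, whose 3' to 5' control ratio is given above, 2.12-fold (18103 and 8523). Respiratory chain genes had 2 of 21 higher and 2 lower, 9.52% each way beside 12.1% and 11.8% of all measured genes. Their median was -0.25, or 0.13 with the median of probe sets. The ribosomal proteins had 1 of 21 higher, 2 lower and a median of -0.27, and 0 of 15 heat shock and chaperone genes passed 2-fold in either direction.

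Of the metallothioneins, small zinc-binding proteins induced by metals and glucocorticoids, MT2A was at 37103 and 2848, 13.0-fold lower, and then at 907, 774 and 604, while MT1X was 2.16-fold higher and MT1E level (10166 and 9942). Metallothionein transcripts are near copies of each other, so these assignments are uncertain. Iron genes gave 2 of 13 higher and 0 lower (median 0.17, or -0.15 with the median of probe sets). The higher share was 15.4%, near the 12.1% of all measured genes. SLC40A1, the iron exporter ferroportin, was below the floor in ESC and at 2521 in EB, at least 25.2-fold higher, with a second probe set at 2.62.

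Interferon response genes were lower for 4 of 23 and higher for 2 (median -0.17). These are 17.4% and 8.70%, beside 11.8% lower and 12.1% higher over all measured genes. TRIM22, an antiviral ubiquitin ligase, was at 3342 in ESC and below the floor in EB, at least 33.4-fold lower, with -0.83 on its other probe set, and ISG15 was 2.73-fold lower. IFI16, a DNA sensor, was at 137 and 1389, 10.2-fold higher. IFITM1, an interferon-inducible membrane protein that is also bright in stem cells, was at 29943 and 2846, 10.5-fold lower, and its second probe set gave -4.88. The antigen presentation list, which holds class I and class II genes, had 0 of 10 higher and 2 lower (median -0.75). The macaque class I gene MAMU-A was at 1908 and 635 and MAMU-E was 2.33-fold lower. With cross-hybridising probe sets left out 0 of 7 were lower (median -0.23). With the median of probe sets 0 of 11 were lower (median -0.51). Class I genes are highly alike, so their probe sets can share targets.

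Outside the lists, the ranking of all genes named several with large differences. On the higher side SLC39A8, a zinc and manganese importer, was at 423 and 9321, 22.0-fold higher, and KYNU, an enzyme of tryptophan breakdown, at 227 and 3794, 16.7-fold. The apical scaffold gene PDZK1 was at least 85.0-fold higher with a second probe set at 5.24, and SLC5A12, a lactate transporter, at least 75.5-fold. These 4 are expressed in gut, liver or kidney epithelium, and each was lower in N3 than in EB. SOX6 was at 138 and 2601, 18.9-fold higher, with 4 probe sets at 1.39 or more. On the lower side GPC4, a glypican of the cell surface, was at 11210 and 453, 24.7-fold lower, and its other probe set gave -5.51. TNFRSF12A, a receptor of the tumour necrosis factor family, was at 5062 and 224, 22.6-fold lower, and the mucin-like protein gene PDPN at 2333 and 105, 22.2-fold, with probe sets at -4.47 and -4.45. NFE2L3, a leucine zipper factor, was 17.5-fold lower with 3 probe sets at -3.88 or below. CXADR, the junction protein used by coxsackieviruses, was 17.2-fold lower and SFN, the epithelial 14-3-3 protein, 17.1-fold.

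The share of genes whose second probe set lay on the side of the first differed by direction, a difference that was not tested. Among 674 higher genes with a second measured probe set, it lay on the same side for 72.4% and also passed 2-fold for 34.6%, and for 37 genes it passed 2-fold the other way. The first probe sets of these genes had a median of 1.48 and the second 0.58. Among 424 lower genes the second lay on the same side for 87.7%, passed 2-fold for 52.4%, and passed it the other way for 14, with medians of -1.44 and -1.08. EP400, a chromatin remodeller, was the extreme case. Its brightest probe set went from below the floor to 24445, at least 244-fold higher, while its other 2 gave 0.05 and -0.94. SLC25A17 (at least 88.9-fold, others down to 0.03) and RCAN2 (13.1-fold lower, second 2.33) disagreed in the same manner. Of 1737 genes with 3 or more measured probe sets, all were past 2-fold higher for 32 and past 2-fold lower for 33. HAPLN1, PLG, ANGPT1, H19 and LUM headed the first group, and CAV1, NFE2L3, SOX2 and SYT1 the second.

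**Figure D5:**
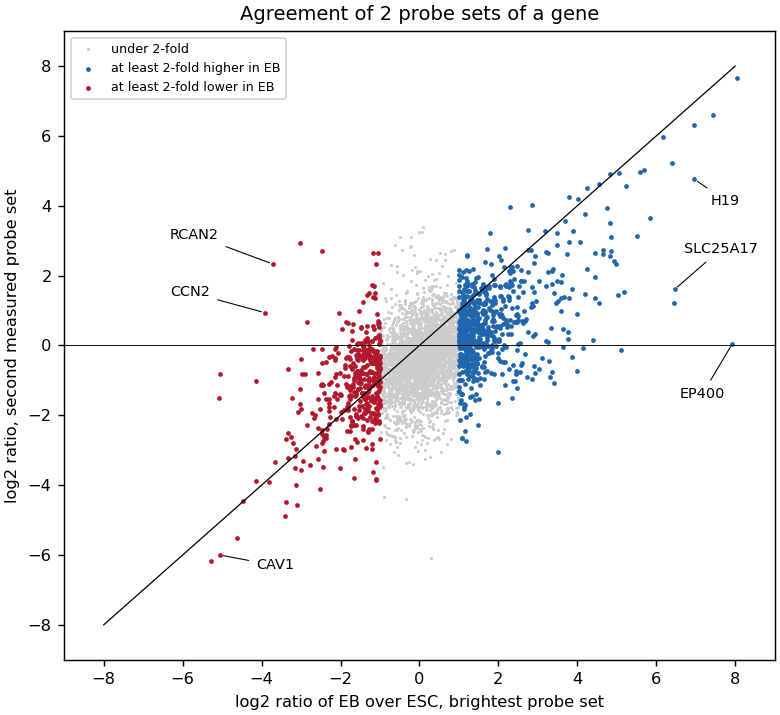
Log2 ratio of EB over ESC on the brightest probe set of a gene (x axis) and on its second measured probe set (y axis), for the 4461 genes with both. Blue and red points passed 2-fold on the first and the diagonal marks equal ratios. CAV1 was lower and H19 higher (6.97 and 4.76) on both probe sets, while EP400 (0.05 on the second) and CCN2 (0.94) lie far from the diagonal.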

How the data were processed

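Biotin-labelled RNA from 1 sample per stage was measured on Affymetrix rhesus arrays. The values deposited by the authors are linear intensities, 1 per probe set and array, and GCOS 1.0 is named per the submitters' processing notes; its algorithm is not given in the sources used here. The deposited trimmed mean was 199 on each array. For this comparison arrays were brought to a target of 500 (mean with 2% trimmed at each end, non-control probe sets), values under 100 were set to 100, and log2 was taken (Python 3.11.15, numpy 2.4.6, pandas 2.3.3). The factors lay between 2.508 and 2.511. Of 52865 probe sets, 24969 have 1 gene symbol in the platform annotation. A gene was its probe set with the highest mean log2 over the 5 arrays.

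There was no test, because each stage had 1 array, and the number of arrays limits the precision. The 47 gene lists (1107 genes, 818 with a probe set here), the comparison itself and the naming rule were chosen with earlier results of these data known. The rule names marker genes, up to 8 members per list past 2-fold and members short of it, the 25 largest ratios and 15 largest bounds each way, and the 15 genes with 3 or more agreeing probe sets and the 10 brightest past 4-fold each way. Alternatives were 4 other scalings, floors of 50 and 200, no floor, 3 other choices of probe set and a 4-fold threshold. The ratio calculation was checked on simulated data. All probe sets of a gene shared the same true ratio there, and changed genes under the floor were not scored. The check therefore does not bear on disagreement of probe sets or on bounds.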

Additional observations from a re-analysis of the deposited data

Results flagged for a closer look

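Probe sets without a gene name in the platform annotation also differed between the arrays and enter no count above. Of 12874 measured on ESC or EB, 1701 (13.2%) passed 2-fold on the higher side in EB and 1562 (12.1%) on the lower, and 31 and 16 of them passed 20-fold. No control sample sets a level for them.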

How the results depend on the processing

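The counts of 1332 higher and 1290 lower genes became 405 and 255 at a 4-fold threshold and 2622 and 653 with equal medians. The lower count was 2038 with a floor of 50, where 12529 genes were measured in place of 10978, and 2008 with no floor, where 10942 were; the cause of the latter was not tested. Higher genes were 50.8% of those past 2-fold, against 80.1% with equal medians and 41.2% with probe sets summarised by their median (1005 higher and 1432 lower).

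Taking the median of probe sets turned the sign for the list medians of the fibrillar collagens (-0.13), the Notch pathway (-0.13), the respiratory chain (0.13) and the iron genes (-0.15), and for BMP7 (-0.06), CCN2 (0.44), FLI1 (-0.13), HEYL (-0.40), TEK (-0.01) and MCL1 (-0.78). With cross-hybridising probe sets left out, the sign turned for EP400 (-0.94) and MCL1 (-2.64). Equal medians turned 17 of 47 list medians, hybridisation controls 5, and quantile normalisation and floors of 50 and 200 turned 3 each. Equal medians and hybridisation controls apply 1 factor to each array and so shift ratios together. They moved the median log2 ratio of all genes from -0.06 to 0.41 and 0.06, which carries list medians just under 0 past it. For the other turns the cause was not tested, beyond the disagreement of probe sets of the genes named above.

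Of 262 genes named in the text as past 2-fold (MYL2 left out), 242 stayed past it the same way with equal medians. The number was 256 after quantile normalisation and 257 on hybridisation controls, and none of these scalings turned a sign. Fewer stayed with a floor of 200 (232) and with the median of probe sets (236, with 6 signs turned). Equal medians and hybridisation controls move all ratios together by less than 2-fold. With them the absence of turned signs was largely fixed in advance and is no support. No paired analysis was possible because each stage had 1 array, and no array could be left out. Depth has no meaning for an array: values under the floor have no order, and the number of arrays limits the precision.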

Other observations

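Genes of paraxial and kidney mesoderm, 9 of which were below the floor on both arrays, had 3 of 7 measured members higher and 1 lower (median 0.44). WT1, a factor of kidney and body cavity lining, was at 317 in EB and 1137 in N1, at least 3.17-fold higher than in ESC, and the somite gene MEOX1 at least 2.82-fold. Of 7 measured germ cell genes 2 were higher and 2 lower (median -0.22, mean 0.30), with TDRD7, a protein of germ granules, at least 3.95-fold higher and NANOS3, which protects germ cells, 3.25-fold lower. Immediate early genes had 3 of 15 higher and 4 lower (median -0.39). MYC was at 1905 and 626, 3.04-fold lower, and JUND at least 6.44-fold lower, while KLF6 (2.85-fold, lowest probe set -0.96), ZFP36 (at least 2.44-fold) and FOSL2 (2.34-fold) were higher. In the unfolded protein and amino acid stress list 2 of 13 were higher and 3 lower (median -0.42), with the lipoprotein receptor gene VLDLR at 1582 and 196, 8.07-fold lower, and the endoplasmic reticulum stress gene HERPUD1 2.36-fold higher. Metallothioneins had 1 of 5 higher and 1 lower (median -0.03).

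Gene families grouped by symbol after their values were seen gave further counts. Many more families were counted than are given here, and those given were among the more lopsided. Over all measured genes 12.1% were higher and 11.8% lower. Large families such as the SLC transporters (12.0% and 13.6%) and potassium channels (11.4% each way) lay near those shares. Of 14 measured ADAMTS protease genes 7 were higher in EB and 2 lower (median 1.02). Of 30 TRIM genes 2 were higher and 7 lower (median -0.53), and of 10 tumour necrosis factor receptor genes 2 were higher and 4 lower (median -0.87). Zinc finger genes named ZNF had 41 of 239 higher and 19 lower (median 0.13).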
